A study of Mus musculus with 40 samples.

Results

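The liver mRNA levels of 10 genes of gluconeogenesis and insulin signalling were described in mice given pioglitazone, a high-fat diet or both. The genes were taken by symbol from both deposited count tables, which hold 40594 genes in common, and all 10 were found once in each table under 1 Ensembl identifier. All 10 also passed the filter on low counts, which left 12942 genes for testing. They are Pck1, G6pc, Fbp1 and Pcx, which encode enzymes of gluconeogenesis, Insr, Irs1, Irs2 and Foxo1 of the insulin signal, and Igfbp1 and Igfbp2, which encode secreted binding proteins of the insulin-like growth factors.

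Poly-A RNA was sequenced from the livers of 40 male mice at an age of 5 months, after 3 months on their diet. The 20 wildtype (WT) mice were C57BL6/J animals, and the 20 knockout (KO) mice carried loxP-flanked PPARγ alleles and an Alb-Cre transgene, whose albumin promoter is active in hepatocytes. There were 4 diets and 5 mice on each diet within a genotype. They were unsupplemented control diet (control), control diet with 0.01% pioglitazone by weight (Pio), a high-fat diet with 60% of its calories from fat (HFD), or that diet with Pio (HFD-Pio). Pioglitazone is a thiazolidinedione drug that activates the nuclear receptor PPARγ. The WT mice were not described as littermates of the KO mice and carried no Cre, and cells other than hepatocytes keep PPARγ in the KO liver. WT and KO counts were deposited in separate tables. A difference in level between the genotypes cannot be told apart from one between the tables, and none was tested. Drug and diet effects were tested within each genotype, and the effects were then compared between genotypes.

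As background, the liver makes glucose from lactate, glycerol and amino acids between meals. Pyruvate carboxylase (Pcx) forms oxaloacetate in mitochondria, phosphoenolpyruvate carboxykinase (Pck1) turns it into phosphoenolpyruvate, fructose bisphosphatase (Fbp1) acts in the middle of the route, and the catalytic subunit of glucose-6-phosphatase (G6pc) releases free glucose. Glucagon raises this programme through cAMP. Insulin binds its receptor (Insr), which phosphorylates the adaptors Irs1 and Irs2, and AKT then keeps the transcription factor FOXO1 out of the nucleus. FOXO1 activates G6pc, Pck1, Irs2 and Igfbp1, so insulin lowers all of these.

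Levels are given as CPM, counts scaled to a common library total after TMM normalization, 1 value for each mouse. Library totals were 15788242 to 49857017 counts in WT and 21542958 to 28334251 in KO mice, and the lowest count of any of the 10 genes in any mouse was 247 (Irs1). A gene is called here at an adjusted p of at most 0.05 in edgeR's quasi-likelihood test. Single genes were also compared by the exact two-sided permutation test, which cannot give a p below 0.00794 for 5 mice against 5 or below 0.0159 for 4 against 5. Hepatocyte markers made up 32200 to 149000 CPM in total, over 6 of the 7 on the list. The symbol Tf was not found. Pparg ranged from 5.79 to 14.2 CPM in WT mice and from 3.01 to 9.90 in KO mice. Its total count includes exons outside the deleted part and other cell types and does not measure the deletion.

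KO Pio mouse 13 stood apart from all other mice. Mitochondrially encoded genes gave 0.852% of its counts, against 3.72% to 10.9% in 38 other mice, and its hepatocyte markers summed to 32200 CPM, the lowest value of the 40 mice. It lay outside the range of the other 19 KO mice in 82.3% of all genes tested and in 9 of the 10 genes here, above it in 5 and below it in 4. The WT Pio group was also shifted, with 4.67%, 9.08%, 10.7%, 10.9% and, in mouse 845, 21.0% mitochondrial counts, against 4.83% to 7.03% in WT control mice, so that 4 of its 5 mice lay above every control mouse. KO HFD mouse 10 had 17625 counts over 8 pancreatic acinar markers, and mouse 13 had 3830, against 31 to 694 in the other 38 mice. In mouse 13, G6pc was at 42.9 CPM, 0.114 times the mean of the other 4 KO Pio mice, and Irs2 was at 257 CPM, 10.6 times that mean. For the 10 genes, results whose call depends on this mouse are therefore given with and without it. It enters the WT results too, because the 8 groups share 1 estimate of the spread.

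**Figure D1:**
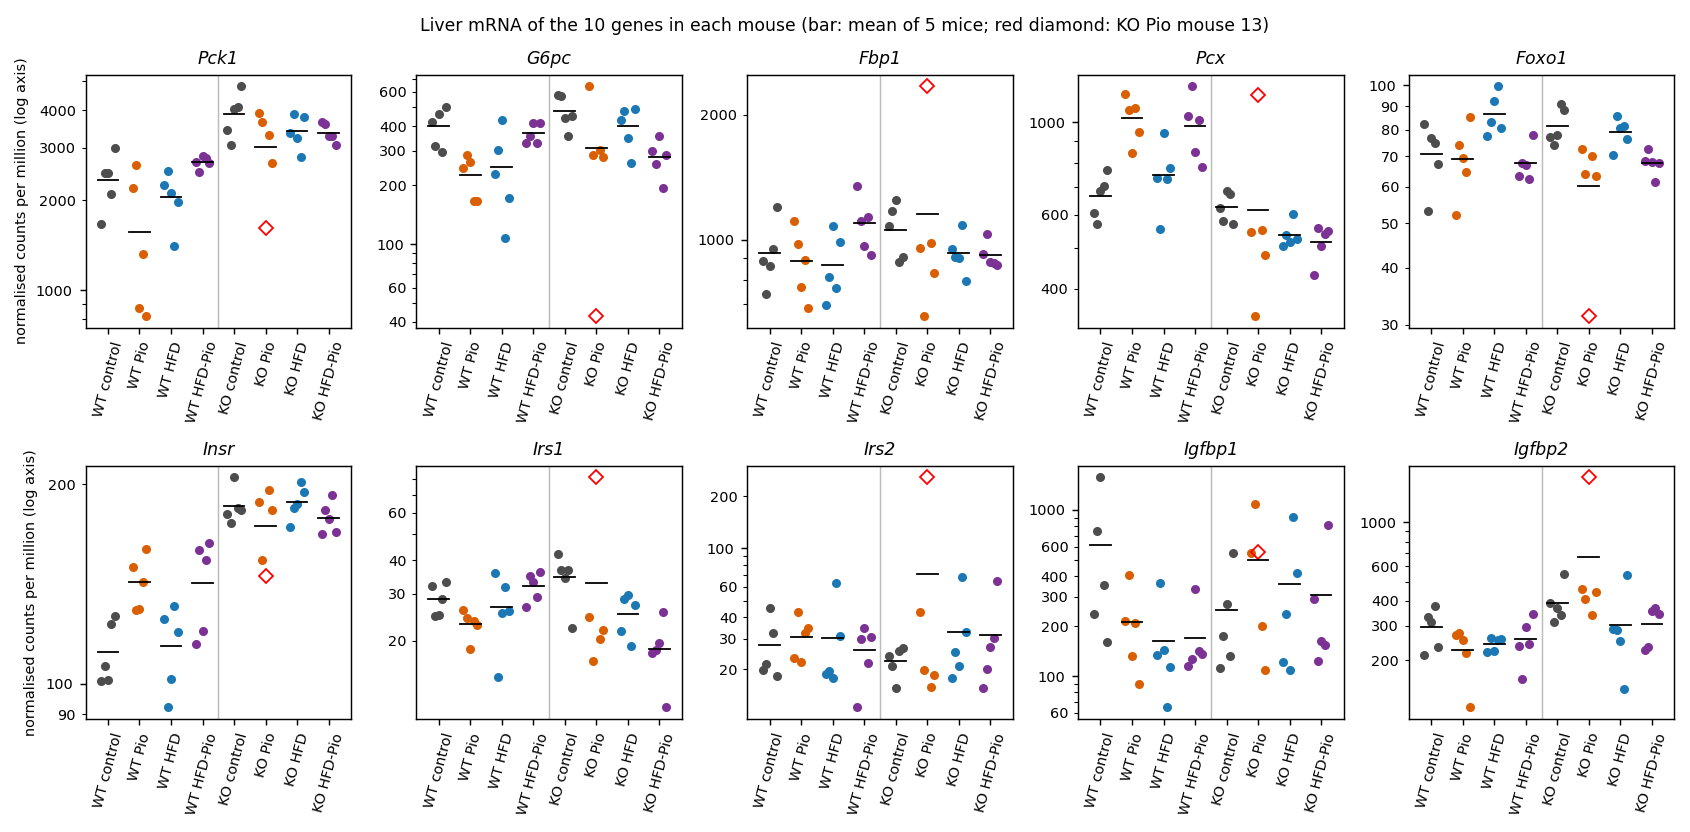
Normalised CPM (log axis) of the 10 genes in each of the 40 mice, by group, with the mean of 5 mice as a bar and KO Pio mouse 13 as a red diamond. Pcx is higher in all 5 WT Pio mice (846 to 1168) than in all 5 WT control mice (570.3 to 768), Igfbp1 spreads over 161 to 1572 within the WT control group, and mouse 13 lies outside the other KO mice in 9 of the 10 panels.

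Within each genotype, 4 comparisons of 2 groups were made, Pio against control (Pio on control diet), HFD-Pio against HFD (Pio on HFD), HFD against control (HFD without Pio) and HFD-Pio against Pio (HFD with Pio). With all 40 mice, 2 of the 80 tests of a gene in a comparison of 2 groups were called, both in KO mice and both resting on mouse 13. Irs2 was called as higher with Pio on control diet, and Igfbp2 as lower in HFD-Pio than in Pio mice. In the 4 WT comparisons 0 of the 10 genes were called by edgeR, while 5 had an unadjusted p under 0.05 for Pio on control diet, 3 for Pio on HFD, 1 for HFD without Pio and 1 for HFD with Pio. Of all genes tested, 3.91%, 1.08%, 1.31% and 1.22% were called in those comparisons, in the same order. DESeq2 called 2, 0, 0 and 1 of the 10 genes there, against 6.28%, 2.78%, 2.91% and 2.94% of all genes. Limma with sample weights, the study's own method, called 3, 3, 0 and 4, against 23.9%, 8.40%, 2.53% and 22.7%.

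Without KO Pio mouse 13 the same WT mice gave 3, 3, 0 and 1 calls by edgeR, against 15.6%, 11.6%, 6.55% and 8.68% of all genes. The fold changes hardly moved, and the standard errors fell, for Pcx from 0.19 to 0.13 on the log2 scale. The median SD within groups over all genes was 0.42 in KO mice with mouse 13 and 0.19 without it, against 0.32 in WT mice. When WT mice were fitted alone, 1 of the 10 genes was called, Pcx for Pio on control diet, where 7.52% of all genes were called. In the other 3 comparisons of 2 WT groups that fit called 0, against 1.25%, 2.77% and 1.63%, and for the diet difference 0, against 0.00804%.

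Pcx had the smallest adjusted p of the 10 genes for Pio on control diet in WT mice in edgeR, with and without mouse 13, while in limma Pck1 had a smaller one. Without Pio it was, in the WT control group, at 570.3, 605, 683, 704 and 768 CPM, and in the WT Pio group at 846, 948, 1069, 1079 and 1168. Every Pio mouse lay above every control mouse (exact permutation test, p = 0.00794). Its mean went from 666 ± 79.0 to 1022 ± 126 CPM (SD, n = 5), a 1.53-fold difference. The log2 fold change was 0.62 (standard error 0.19, adjusted p = 0.0595 in edgeR with all mice), which missed the threshold, and 0.63 (standard error 0.13, adjusted p = 0.00174) without mouse 13. Over all settings tried the adjusted p of Pcx ran from 0.00174 to 0.136. On WT mice alone it was 0.0207. Without WT Pio mouse 845 the log2 fold changes were 0.65 for Pcx (adjusted p = 0.103 in edgeR), 0.31 for Insr (0.220) and -0.73 for G6pc (0.394), as against 0.62, 0.35 and -0.83 with it. WT Pio mouse 841, whose mitochondrial share of 4.67% was below that of every control mouse, had 1168 CPM of Pcx, 149.9 of Insr and 245 of G6pc. WT Pio and control groups did not overlap in these genes, so every Pio mouse lay outside the control range in them. Values of 1 mouse cannot tell the mitochondrial share and the drug apart. The part of the mitochondrial share in these differences was not tested beyond these values.

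On HFD, Pcx was at 554, 732, 734, 777 and 940.2 CPM in WT mice without Pio and at 782, 848, 1013, 1035 and 1220.0 with it. Here the groups overlapped, and 3 of the 5 HFD-Pio mice lay above every HFD mouse (exact permutation test, p = 0.0476). The log2 fold change was 0.39 (adjusted p = 0.319 in edgeR), and 0.41 (adjusted p = 0.0420) without mouse 13, with a range of 0.0389 to 0.548 over all settings. The Pio effects on Pcx on the 2 diets were not shown to differ (log2 difference -0.23, adjusted p = 0.798 in edgeR, and 0.502 without mouse 13).

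In KO mice, Pcx did not move upward with Pio. KO control mice were at 571, 579, 622, 674 and 684 CPM, and KO Pio mice at 344, 481, 547, 552 and, in mouse 13, 1159. Without mouse 13 the 4 KO Pio mice all lay below the 5 controls, at 481 ± 97.3 against 626 ± 52.4 CPM (exact permutation test, p = 0.0159), although edgeR did not call this (log2 fold change -0.36, adjusted p = 0.293). Limma with sample weights did (-0.32), and the adjusted p ran from 0.0368 to 1 over all settings. Groups of these 9 mice did not overlap in that direction in 3.99% of all genes and in 2 of the 10 here, Pcx and Foxo1. With mouse 13 the log2 fold change of Pcx was -0.02. The Pio effect in KO minus that in WT mice was -0.64 with all mice (adjusted p = 0.121 in edgeR) and -0.99 without mouse 13 (standard error 0.20, adjusted p = 0.00258), the 1 difference between genotypes called among the 10 genes in that fit, in which 5.78% of all genes were called. Its adjusted p ran from 0.000689 to 0.293 over all settings. With all mice 0 of the 10 genes were called for this difference by edgeR, 4 had an unadjusted p under 0.05, 7.87% of all genes were called, DESeq2 called 2 (Insr, Igfbp1, against 10.8% of all genes) and limma 2 (Pcx, Pck1, against 15.4%). On HFD the KO groups overlapped, at 505 to 602 CPM without and 431 to 557 CPM with Pio.

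G6pc, the last step of glucose output, moved the other way on control diet. WT control mice were at 297, 316, 422, 462 and 503 CPM and WT Pio mice at 167, 167, 245, 263 and 284. Every Pio mouse lay below every control mouse (exact permutation test, p = 0.00794), with means of 400.0 ± 90.3 and 225 ± 55.2 CPM. In edgeR the log2 fold change of G6pc was -0.83 with all mice (standard error 0.35, adjusted p = 0.195), and -0.82 (standard error 0.26, adjusted p = 0.0287) without mouse 13, with 0.0287 to 0.394 over all settings.

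On HFD the order of the groups turned. WT HFD mice spread over 107, 172, 229, 304 and 432 CPM, while HFD-Pio mice were at 327, 328, 358, 414 and 415. These groups overlapped because of 1 HFD mouse at 432 (exact permutation test, p = 0.0794). The Pio effect on HFD minus that on control diet was 1.4 on the log2 scale for G6pc (standard error 0.50, adjusted p = 0.223 in edgeR), and 1.4 (standard error 0.37, adjusted p = 0.0276) without mouse 13, with 0.0170 to 0.454 over all settings. Every WT HFD-Pio mouse also lay above every WT Pio mouse in G6pc (exact permutation test, p = 0.00794), although no edgeR fit called that comparison (adjusted p = 0.354, and 0.0807 without mouse 13). Limma with sample weights called it, at 0.0324, the lowest of all settings, and the highest was 0.793.

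Pck1 followed a like pattern in WT mice. On control diet it was at 1671, 2094, 2465, 2473 and 2994 CPM without Pio and at 819, 873, 1322, 2191 and 2614 with Pio. The Pio group thus held 3 mice below every control mouse and 2 within their range. The log2 fold change of -0.58 was not called (standard error 0.24, adjusted p = 0.177 in edgeR). It was called without WT Pio mouse 842, the highest of its group, at -0.85 (adjusted p = 0.0467), and by limma with sample weights at -0.89, with an adjusted p of 0.000504. Without WT Pio mouse 845, the library with 21.0% mitochondrial counts, the log2 fold change of Pck1 shrank to -0.42 (adjusted p = 0.454 in edgeR). Over all settings its adjusted p ran from 0.000504 to 0.454.

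HFD-Pio mice were close together in Pck1, at 2485, 2661, 2675, 2766 and 2812 CPM, and 4 of the 5 lay above every Pio mouse. HFD-Pio against Pio in WT mice gave 0.78 for Pck1 (standard error 0.24, adjusted p = 0.0956 in edgeR), and 0.77 (adjusted p = 0.0215) without mouse 13, with 2.14e-05 to 0.428 over all settings. It was also called by edgeR without WT Pio mouse 841 (0.93, adjusted p = 0.0260) or 842 (1.04, adjusted p = 0.0237). Over the 40 fits that left out 1 mouse, the log2 fold change ran from 0.61 to 1.04. The HFD-Pio group overlapped the WT HFD mice (1405, 1971, 2111, 2248 and 2512 CPM), with 4 of its 5 mice above all of them. The exact permutation test gave an unadjusted p of 0.0159. EdgeR gave a log2 fold change of 0.39 and did not call it (adjusted p = 0.448, and 0.211 without mouse 13). The difference of the Pio effects on the 2 diets was 0.97 (adjusted p = 0.209), and 0.98 (adjusted p = 0.0498) without mouse 13, with 0.00318 to 0.454 over all settings. With all mice edgeR called 0 of the 10 genes for this diet difference in WT mice, where 2 (Pck1, G6pc) had an unadjusted p under 0.05 and 0.0773% of all genes were called. Without mouse 13 it called 2, Pck1 and G6pc, against 5.25% of all genes. DESeq2 called 0 (1.02% of all genes) and limma the same 2 genes (10.6%).

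In KO mice neither Pck1 nor G6pc was called in any comparison of 2 groups with or without mouse 13. Pck1 was at 3063 to 4818 CPM in KO control and 2664 to 3907 CPM in the 4 KO Pio mice other than mouse 13, which had 1608. G6pc was at 354 to 579.5 CPM in KO control mice, at 278, 286, 302 and 641 in those 4 KO Pio mice, at 260.0 to 489 in KO HFD and at 193 to 357 in KO HFD-Pio mice. On HFD the Pio effect on G6pc in KO minus that in WT mice was -1.09 (adjusted p = 0.804 in edgeR), and -1.11 (adjusted p = 0.171) without mouse 13. Limma with sample weights called it, at 0.0346, and the highest adjusted p of all settings was 1.

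Fbp1 was called in no edgeR comparison of 2 groups, and by limma as higher in WT HFD-Pio than in WT Pio mice (0.37, adjusted p = 0.0222, against 0.557 in edgeR, 0.189 without mouse 13, and at most 0.957 over all settings). WT group means were 926 ± 169.8 (control), 885 ± 168 (Pio), 866 ± 161 (HFD) and 1095 ± 169 CPM (HFD-Pio). HFD-Pio mice overlapped Pio mice (exact permutation test, p = 0.0794) and HFD mice (p = 0.0714). KO Fbp1 levels were 653 to 1244 CPM over 19 mice, and mouse 13 was at 2347.

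**Figure D2:**
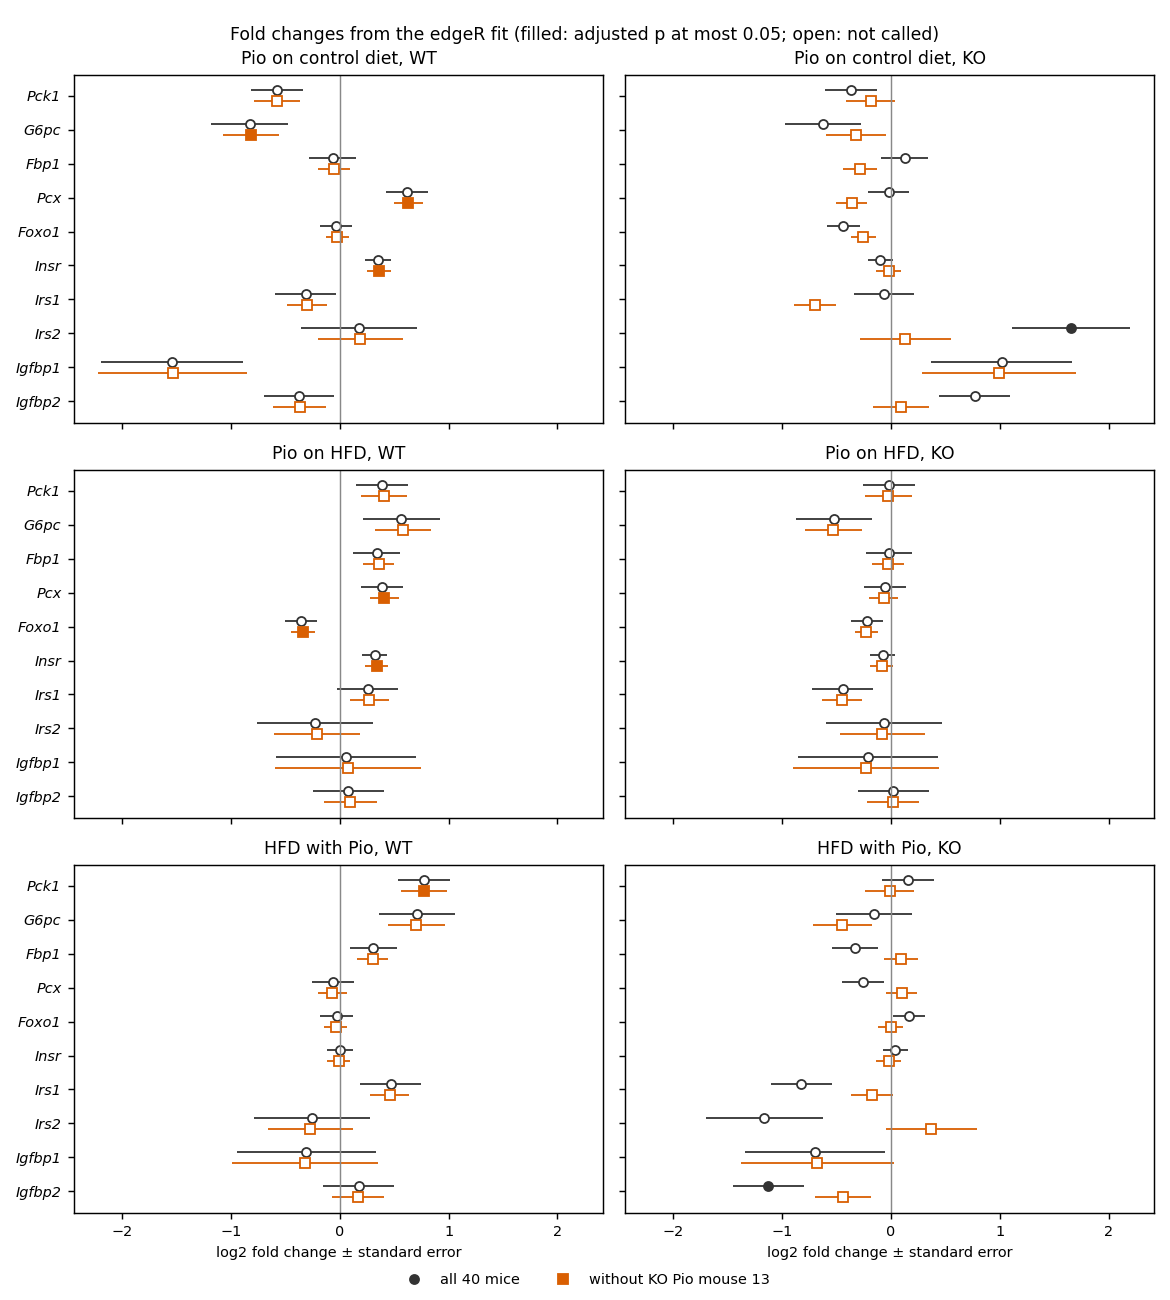
Log2 fold changes with standard errors of the 10 genes in 6 comparisons, from the fit of all 40 mice (circles) and without KO Pio mouse 13 (squares), filled where the adjusted p was at most 0.05. The WT values hardly differ between the fits while their error bars shorten, and the KO values of Irs2 move from 1.66 to 0.13 for Pio on control diet and from -1.16 to 0.37 for HFD with Pio.

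The start site windows of 9 of the 10 genes were read from RefSeq (GRCm38.p6, 250 bases before to 50 after each annotated start, 11 windows). They are shown for the 2 enzymes whose response to Pio differed most between the diets, for Pcx, for the called gene Irs2, and for Igfbp1, a classical insulin-repressed promoter. Each is written 5′ to 3′ on the strand of its gene, and capitals mark a match to TGTTTTG, the core of insulin response elements, or to TTACGTCA, a variant of the cAMP response element, on either strand.
Pck1: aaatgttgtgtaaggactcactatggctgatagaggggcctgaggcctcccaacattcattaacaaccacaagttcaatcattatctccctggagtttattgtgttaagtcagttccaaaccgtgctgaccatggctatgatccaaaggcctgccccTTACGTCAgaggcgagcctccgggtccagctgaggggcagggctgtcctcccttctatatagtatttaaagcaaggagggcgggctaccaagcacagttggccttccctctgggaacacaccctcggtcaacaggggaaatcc
G6pc: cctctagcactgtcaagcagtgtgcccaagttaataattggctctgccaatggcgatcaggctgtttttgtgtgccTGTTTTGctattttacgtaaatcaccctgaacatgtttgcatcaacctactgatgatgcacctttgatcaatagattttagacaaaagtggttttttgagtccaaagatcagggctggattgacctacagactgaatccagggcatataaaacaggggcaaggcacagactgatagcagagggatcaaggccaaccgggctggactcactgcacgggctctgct
Igfbp1: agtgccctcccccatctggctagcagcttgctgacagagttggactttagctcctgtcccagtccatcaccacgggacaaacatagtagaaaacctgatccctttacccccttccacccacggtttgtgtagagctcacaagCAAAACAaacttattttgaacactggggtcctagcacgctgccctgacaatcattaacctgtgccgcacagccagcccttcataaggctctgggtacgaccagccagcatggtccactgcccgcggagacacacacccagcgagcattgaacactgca
Irs2: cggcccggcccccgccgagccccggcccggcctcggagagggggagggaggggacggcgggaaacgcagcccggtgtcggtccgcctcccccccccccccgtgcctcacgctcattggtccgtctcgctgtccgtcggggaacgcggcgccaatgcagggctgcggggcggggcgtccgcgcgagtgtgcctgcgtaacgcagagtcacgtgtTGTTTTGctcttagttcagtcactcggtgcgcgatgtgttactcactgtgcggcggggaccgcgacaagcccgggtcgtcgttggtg
Pcx: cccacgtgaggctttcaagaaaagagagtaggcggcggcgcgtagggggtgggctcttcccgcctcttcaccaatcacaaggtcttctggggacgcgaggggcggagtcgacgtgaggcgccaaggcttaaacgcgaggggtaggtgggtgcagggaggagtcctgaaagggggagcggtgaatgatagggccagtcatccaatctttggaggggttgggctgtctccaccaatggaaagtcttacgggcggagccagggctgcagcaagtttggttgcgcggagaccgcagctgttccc

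These windows lie at chr2:173152823-173153122 (Pck1, plus strand), chr11:101367466-101367765 (G6pc, plus), chr11:7197537-7197836 (Igfbp1, plus), chr8:11008880-11009179 (Irs2, minus) and chr19:4510222-4510521 (Pcx, plus, the first of 2 annotated starts). TGTTTTG or its complement stood in 4 of the 11 windows (G6pc, Igfbp1, Irs2 and, at 2 positions, Irs1), against 6.32% of the 32544 distinct RefSeq windows. TTACGTCA stood in that of Pck1 alone, 93 bases before the start, against 0.501% of all windows. The consensus cAMP element TGACGTCA, which shares its last 6 letters with that variant, stood in 0 of the 11 (1.80% of all windows). TGTTTAC, 1 consensus form of the FOXO site, also stood in 0 of the 11 (3.66%). A count of 0 for that form does not mean that FOXO1 has no site in these windows. The sequence AGGTCA repeated after 1 base, the type of site that PPARγ binds with RXR, stood in 0 of the 11, and in 0.0399% of all windows. TATAAA stood in that of G6pc, 29 bases before the start, and in 13.6% of all windows. A match describes these letters only, and distant sites are outside the windows.

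**Figure D3:**
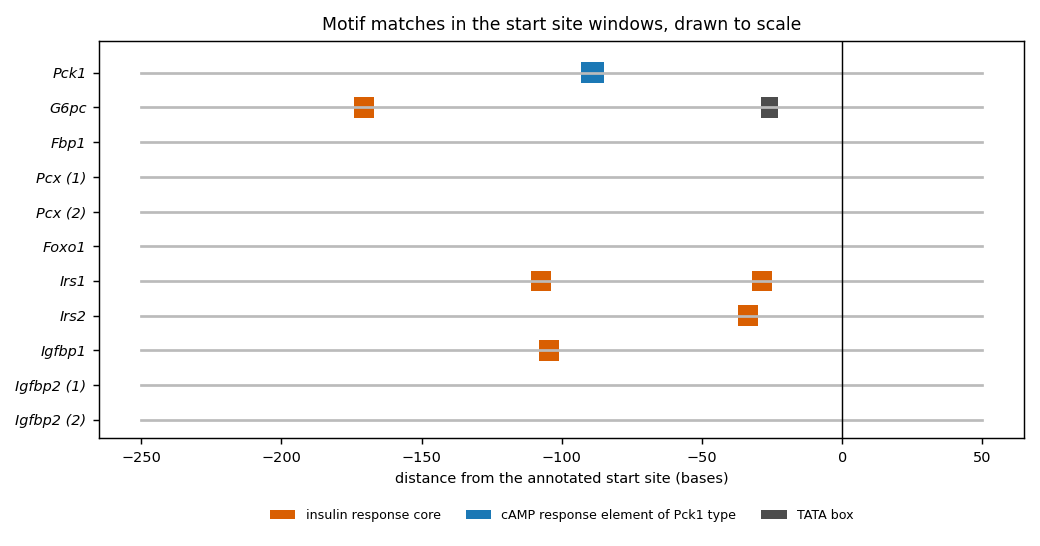
Positions of motif matches in the 11 start site windows of 9 genes, in bases from the annotated start, on either strand. The insulin response core is found in G6pc, Irs1, Irs2 and Igfbp1, and the cAMP response element variant in Pck1.

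Other genes of the route were read from lists. Calls in this and the later lists stand beside the shares of all genes called by edgeR. For Pio on control diet, Pio on HFD, HFD without Pio and HFD with Pio in WT mice these were 3.91%, 1.08%, 1.31% and 1.22%. Without mouse 13 they were 15.6%, 11.6%, 6.55% and 8.68%. In KO mice they were 9.01% for Pio on control diet and 4.96% for HFD with Pio, and 0.512% and 0.0931% without mouse 13. In WT mice on control diet Pio gave 1 call, as lower, among 12 tested gluconeogenic and shared glycolytic enzymes, Pck2, the mitochondrial form of PEPCK (log2 fold change -1.03, standard error 0.27, adjusted p = 0.0224 in edgeR). The median of the list was -0.06, against -0.02 over all genes. In the other 3 WT comparisons 0 of the 12 were called. Without mouse 13, 3 were called as higher with Pio on HFD (Pgk1, 1.10; Pgam1, 0.90; Mdh1, 0.64) and 3 as lower with HFD (Pck2, -1.02; Pgk1, -0.86; Pgam1, -0.77). Pgk1 and Pgam1 serve both glycolysis and gluconeogenesis. Pck2 was also called in KO mice, as higher with Pio (1.19) and lower in HFD-Pio than in Pio mice (-1.20), with Pgam1 as higher in the former (1.16). Without mouse 13, 0 of the 12 were called in either of these KO comparisons.

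Of 19 genes of substrate entry and shuttles, Pio on control diet gave 2 calls as higher and 0 as lower in WT mice. They were Gpd1, which links glycerol to the route (0.97, adjusted p = 0.00195 in edgeR), and Ldhb, a lactate dehydrogenase subunit (1.46, adjusted p = 0.00415). HFD without Pio gave 1 higher, Gpd1 (0.80), and 1 lower, the aspartate aminotransferase Got1 (-1.53, adjusted p = 0.00508). Without mouse 13 the counts were 4 higher for Pio on control diet, 3 higher for Pio on HFD, 1 higher and 3 lower for HFD, and 4 higher and 1 lower for HFD with Pio. The 3 lower with HFD were Got1, Tat and Sds, all of amino acid breakdown. KO mice had 3 called with Pio on control diet (Sds, 1.18; Mpc2, 1.44; Slc16a1, 0.62) and 1 for HFD with Pio (Mpc2, -1.49), and 0 without mouse 13.

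Among 16 tested transcriptional regulators of gluconeogenesis, 1 was called in the WT comparisons, the cAMP-responsive factor Creb3l3 as higher in HFD-Pio than in Pio mice (0.66, adjusted p = 0.0186 in edgeR). Without mouse 13, 1 was called as higher and 2 as lower with Pio on control diet, namely Ppargc1a, a coactivator of gluconeogenic genes (0.68), Cebpb (-0.95) and Creb3l3 (-0.39). Ppargc1a was lower in HFD-Pio than in Pio mice in that fit (-1.17), the comparison in which Pck1 was higher. The 3 called in KO mice with Pio, all as higher (Foxa2, Cebpa, Nr0b2), numbered 0 without mouse 13. In the glucagon and cAMP arm, 2 of 10 genes were called for WT Pio against control mice, both as higher, the adenylate cyclase Adcy6 (0.97, adjusted p = 0.00130 in edgeR) and the protein kinase A catalytic subunit Prkaca (0.41, adjusted p = 0.0198), and 4 higher without mouse 13. There Adcy6 was also called for Pio on HFD (0.66). In KO mice 1, Gnas, was called for Pio (1.75) and for HFD with Pio (-1.78), and 0 without mouse 13.

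Insr, the insulin receptor, was the least variable of the 10 genes. WT control mice were at 101, 101, 106, 123 and 127 CPM, and WT Pio mice at 129, 129.8, 143, 149.9 and 159.8, so that every Pio mouse lay above every control mouse (exact permutation test, p = 0.00794). The difference was 1.27-fold, from 112 ± 12.3 to 142 ± 13.1 CPM. In edgeR the log2 fold change of Insr was 0.35 with all mice (standard error 0.12, adjusted p = 0.0834), and 0.36 (adjusted p = 0.0181) without mouse 13, with 0.0181 to 0.273 over all settings. Of all genes, 4.50% had all 5 WT Pio mice above all 5 WT control mice and 3.03% below, against 2 (Pcx, Insr) and 1 (G6pc) of the 10 here.

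On HFD, Insr was at 92.1, 102, 119.6, 125 and 131 CPM without Pio and at 115, 120.1, 154, 159 and 163 with it, with 3 of 5 HFD-Pio mice above every HFD mouse. The log2 fold change was 0.32 (adjusted p = 0.166 in edgeR), and 0.34 (adjusted p = 0.0351) without mouse 13, with 0.0280 to 0.372 over all settings. In KO mice the groups overlapped throughout, with 175 to 205 CPM in control, 146 to 196 in Pio, 173 to 202 in HFD and 168 to 193 in HFD-Pio mice. The Pio effect in KO minus that in WT mice was -0.45 on control diet (adjusted p = 0.0796 in edgeR), and -0.38 (adjusted p = 0.142) without mouse 13. DESeq2 called it, and the adjusted p ran from 0.0367 to 0.279 over all settings.

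Foxo1 separated the KO Pio from the KO control mice. KO control mice were at 73.9, 77.1, 78, 88.4 and 91.1 CPM, and KO Pio mice at 63.3, 64.0, 70.3, 72.5 and, in mouse 13, 31.4, all below the controls (exact permutation test, p = 0.00794, and 0.0159 without mouse 13). Groups that did not overlap in that direction were found in 2.09% of all genes, and in 1 of the 10 here. EdgeR gave -0.44 (standard error 0.15, adjusted p = 0.0558), and -0.25 (adjusted p = 0.389) without mouse 13. DESeq2 called 2 of the 10 genes here (Irs2, Foxo1, against 11.0% of all genes) and limma 3 (Pcx, Foxo1, Irs1, against 9.40%). For Foxo1 the adjusted p ran from 0.0225 to 0.389 over all settings. On HFD 4 of the 5 KO HFD-Pio mice (61.5, 67.8, 68.1, 68.5 and 72.5 CPM) lay below every KO HFD mouse (70.5, 76.5, 80.5, 81.5 and 85.8), with an exact permutation p of 0.0159 and an edgeR log2 fold change of -0.22 (adjusted p = 1, also without mouse 13).

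The same comparison in WT mice was 77.6, 80.7, 83.0, 92.2 and 99.6 CPM on HFD against 62.5, 63.3, 66.9, 67.8 and 77.7 on HFD-Pio. Of the HFD-Pio mice 4 lay below every HFD mouse (exact permutation test, p = 0.0159). EdgeR gave -0.36 (adjusted p = 0.235), and -0.34 (adjusted p = 0.0342) without mouse 13, with 0.0190 to 0.542 over all settings. On control diet WT Foxo1 was alike with and without Pio, at 69.1 ± 12.1 and 70.9 ± 11.2 CPM (log2 fold change -0.04, 95% confidence interval -0.34 to 0.27). The annotation places exons of Gm20402 over those of Foxo1, of Gm9747 over Irs1 and of 9530052E02Rik over Irs2, and whether counting used the strand is not stated, so reads there could be shared or dropped.

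Irs1 was the least abundant of the 10 genes per length in WT control mice. With all mice, the adaptor was called in no edgeR comparison. WT Pio mice were at 18.6, 22.9, 23.8, 24.3 and 26.1 CPM and WT HFD-Pio mice at 26.7, 29.3, 33.2, 34.8 and 36.0, without overlap (exact permutation test, p = 0.00794), and the log2 fold change was 0.47 (adjusted p = 0.481 in edgeR, and 0.106 without mouse 13). Limma called it at 0.0337, the lowest of all settings, and the highest was 0.837. For HFD with Pio in WT mice 2 of the 10 genes, Irs1 and G6pc, had non-overlapping groups in that direction, against 2.91% of all genes.

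KO Irs1 was highest in the control group, at 22.4, 34.5, 36.7, 36.8 and 42.0 CPM. The 4 KO Pio mice other than mouse 13 were at 16.8, 20.3, 21.9 and 24.6, KO HFD mice at 19.2 to 29.7 and KO HFD-Pio mice at 11.3 to 25.6. Mouse 13 was at 81.4. Pio on control diet gave -0.06 with all mice (adjusted p = 0.903 in edgeR) and -0.70 (standard error 0.20, adjusted p = 0.0922) without mouse 13, and the exact permutation test of 4 mice against 5 gave p = 0.0317. Limma called it (-0.73, adjusted p = 0.00247), the lowest of all settings, and the highest was 1. HFD-Pio against Pio gave -0.83 (adjusted p = 0.0668 in edgeR), and -0.17 (adjusted p = 1) without mouse 13. DESeq2 called it, as did edgeR without any 1 of KO Pio mice 11, 12, 14 and 15, with 0.0168 to 1 over all settings.

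Irs2 was called in KO mice with all 5 Pio mice and not without mouse 13. KO control mice were at 15.6, 21.0, 23.8, 25.6 and 26.7 CPM, and KO Pio mice at 15.8, 18.6, 19.9, 43.1 and, in mouse 13, 257. Of the other 4 mice, 1 lay above every control mouse and 3 within the control range. The log2 fold change was 1.66 (standard error 0.54, adjusted p = 0.0488 in edgeR), where 9.01% of all genes were called, 7.75% of all as higher, and 1 of the 10 here. Without mouse 13 it was 0.13 (standard error 0.42, adjusted p = 0.976), 0.512% of all genes were called, and 0 of the 10, with 3 (Pcx, Foxo1, Irs1) at an unadjusted p under 0.05. The adjusted p ran from 0.0145 to 0.976 over all settings, and the call was kept in 14 of the 40 fits that left out 1 mouse. HFD-Pio against Pio gave -1.16 (adjusted p = 0.174), and 0.37 (adjusted p = 1) without mouse 13, a turn of direction. In WT mice Irs2 spanned 12.1 to 63.5 CPM, the 4 groups overlapped, and log2 fold changes ran from -0.26 to 0.17, none called.

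KO mice on HFD had 0 of the 10 genes called by edgeR, DESeq2 or limma for Pio, with 0 at an unadjusted p under 0.05 in edgeR with all mice and 0.0155% of all genes called (0.0618% by DESeq2, 0% by limma). HFD without Pio in KO mice also had 0 called by the 3 tools and 0 at an unadjusted p under 0.05 in edgeR, where 0.185% of all genes were called (0.410% by DESeq2, 4.19% by limma). Over the 40 fits that left out 1 mouse, KO HFD mouse 10 included, these comparisons also had 0 of the 10 called. The smallest exact permutation p among them was 0.0159 for Foxo1 (Pio on HFD) and 0.0238 for Pcx, whose mean was 538 ± 38.1 CPM on HFD and 626 ± 52.4 on control diet.

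In the other 4 comparisons of effects 0 of the 10 genes were called by edgeR. They are the diet difference in KO mice and the genotype differences of Pio on HFD, of HFD without Pio and of HFD with Pio. Unadjusted p were under 0.05 for 1, 2, 1 and 3 genes, DESeq2 called 0 in each (0%, 0.201%, 0.703% and 0.834% of all genes), and limma 0, 1, 0 and 2 (0.402%, 2.74%, 1.43% and 7.53%). Of all genes 0%, 0.0927%, 0.0618% and 0.0155% were called there. Without mouse 13 edgeR again called 0 of the 10 in each, against 0%, 0.163%, 1.05% and 0.00775% of all genes, and for Pio on HFD and for HFD in KO mice 0 of the 10, against 0% and 0.388%.

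Of 15 receptor-proximal genes of the insulin signal, 0 were called in any of the 4 WT comparisons of 2 groups. Without mouse 13, edgeR called 1 for Pio on control diet (Sh2b2, -0.62), 2 for Pio on HFD (Grb2, -0.48; Grb14, -0.40) and 1 for HFD (Grb2, 0.42). Grb14 is an adaptor that inhibits the insulin receptor. In KO mice 3 were called for Pio on control diet, the receptor adaptor Sh2b2 (1.64), Socs1 (2.22), which encodes an inhibitor of cytokine and insulin signals, and the insulin-degrading enzyme Ide (-0.54), and 0 without mouse 13. For HFD with Pio 1 was called (Ide, 0.64), and 0 without it.

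Of 23 genes from PI3K to AKT and mTOR, 1 was called in the WT comparisons, Pde3b, the phosphodiesterase through which insulin lowers cAMP, as higher with Pio on HFD (0.60, adjusted p = 0.0221 in edgeR). Without mouse 13, 4 were called as higher and 3 as lower for Pio on control diet, where 15.6% of all genes were called. Among them were Akt1 (-0.50), Eif4ebp1 (-0.54) and Pde3b (0.44). The median of the 23 was -0.06 there. KO mice had 2 called for Pio on control diet, Pik3r1, the regulatory subunit of PI3K (-0.79, adjusted p = 0.00641), and Eif4ebp1 (0.87), of which the fit without mouse 13 called 1 of 23 as lower, and 2 for HFD with Pio (Pik3r1, 0.51; Inppl1, -0.59), and 0 without it.

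Igfbp1, whose transcription insulin represses strongly, had the largest SD between mice of 1 group on the log2 scale, in WT and in KO mice. By fold range, KO Pio mice with mouse 13 spread further in Irs2 (16.3-fold). WT control mice were at 161, 236, 355, 749.9 and 1572 CPM, a 9.78-fold range, WT Pio mice at 89.8, 132, 209, 215 and 408, and WT HFD mice at 64.8, 113, 133, 144 and 362. Means were 615 ± 581 (control), 211 ± 122 (Pio), 163 ± 115 (HFD) and 170.2 ± 91.3 CPM (HFD-Pio). HFD against control gave -1.91 on the log2 scale (95% confidence interval -3.26 to -0.57, adjusted p = 0.146 in edgeR, and 0.0860 without mouse 13), and 4 of the 5 HFD mice lay below every control mouse (exact permutation test, p = 0.0635). Pio on control diet gave -1.54 (95% confidence interval -2.87 to -0.22, adjusted p = 0.192, and 0.124 without mouse 13). Without WT control mouse 833 these values were -1.23 (adjusted p = 0.451) for HFD and -0.84 (adjusted p = 0.564) for Pio. Over the fits that left out 1 mouse they ran from -2.45 to -1.23 and from -1.93 to -0.84. The intervals with all mice do not hold 0, and neither comparison passed the correction over 12942 genes under any setting tried.

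KO mice were not lower in Igfbp1 with Pio. KO control mice were at 112 to 551 CPM, and KO Pio mice at 109, 199.9, 554, 557 and 1091, with mouse 13 at 557 inside the range. The Pio effect in KO minus that in WT mice on control diet was 2.56 (standard error 0.92, adjusted p = 0.0727 in edgeR; 0.0368 to 0.278 over all settings), and 2.53 (adjusted p = 0.127) without mouse 13. The groups overlapped in both genotypes.

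Igfbp2 was called in KO mice for HFD-Pio against Pio, where 4.96% of all genes (4.54% as lower) and 1 of the 10 here were called. KO HFD-Pio mice were at 227, 235, 344, 356 and 369 CPM, and KO Pio mice at 338, 409, 444, 459 and, in mouse 13, 1691. The log2 fold change was -1.13 (standard error 0.33, adjusted p = 0.0434 in edgeR), and -0.44 (standard error 0.26, adjusted p = 1) without mouse 13, where 0.0931% of all genes and 0 of the 10 were called. The exact permutation test gave p = 0.0317 with and 0.0635 without that mouse, and the adjusted p ran from 0.0117 to 1 over all settings. DESeq2 called 2 of the 10 genes in this comparison (Irs1, Igfbp2, against 7.77% of all genes) and limma 0 (2.39%). The edgeR call was also lost without any 1 of KO HFD-Pio mice 16, 17, 18, 19 and 20. In WT mice the 4 groups overlapped between 116 and 375 CPM, and 0 comparisons were called.

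Of 8 other IGF and binding protein genes, 0 were called in the WT comparisons, and 1 in KO mice for Pio on control diet, Igf1, the growth factor that the liver secretes (-0.57, adjusted p = 0.0445 in edgeR), which was lost without mouse 13. In that fit 2 were higher with Pio on control diet (Igfbp5, 0.96; Igf1, 0.35), 1 lower with Pio on HFD (Igfbp4, -0.41), and 2 higher with HFD in WT mice (Igfbp4, 0.62; Igfals, 0.83). Igfals encodes the subunit that keeps IGF complexes in the blood.

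Feeding state and time of day act on most of these genes, so lists that read them were set beside the results. Among 11 genes high in fed liver, 4 were called as lower with HFD in WT mice (Pnpla3, -4.60; Acly, -1.93; Scd1, -2.50; Fasn, -1.78) and 4 in HFD-Pio against Pio mice (Pnpla3, -4.24; Acly, -1.97; Acaca, -1.51; Scd1, -2.25), with 0 called for Pio on either diet in WT mice. All of these serve or regulate lipid synthesis and remodelling. Among 10 genes high in fasted liver, Pio on control diet gave 1 higher, Cpt1a (0.59), and 1 lower, Fgf21 (-3.01), and Cpt1a was also called as higher with HFD (0.63). Of 19 clock genes, WT Pio mice had 4 called as higher and 4 as lower than WT control mice, the comparison in which Pcx, Insr and G6pc separated. The 4 with the smallest adjusted p were Cry1 (-1.54), Npas2 (-2.10), Ciart (2.01) and Nfil3 (-0.87). For Pio on HFD in WT mice 0 of the 19 were called, and in KO mice with Pio 0 on either diet. Without mouse 13 the WT counts were 6 lower with HFD and 6 lower with HFD with Pio in the fed list, with 1 (Scd1) higher for Pio on each diet, and 6 higher and 4 lower clock genes for Pio on control diet and 0 for Pio on HFD. The fasted list then had 2 higher and 1 lower for Pio on control diet and 3 higher and 1 lower for HFD. The part of clock and feeding state in the values of the 10 genes was not tested.

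Cell composition was read from markers, since in whole liver fewer cells of a type and less RNA per cell cannot be told apart. Adipocyte markers summed to 22.2 to 33.6 CPM in WT control and 97.1 to 535 in WT Pio mice, where 3 of the 5 tested were called as higher (Cfd, Retn, Fabp4). The defining markers Adipoq, Lep and Plin1 did not pass the filter on low counts, with at most 58 counts in any mouse. The paper lists Cfd and Fabp4, and not Retn, among genes that PPARγ was already reported to regulate in liver. Whether the rise of these 3 markers reflects adipocyte content was not tested. On control diet the Pio effect in KO minus that in WT mice was -7.11 for Cfd, -6.87 for Retn and -2.65 for Fabp4. EdgeR called each of these, and did not call Lipe or Slc2a4. On HFD the sums were 27.7 to 88.9 CPM without and 117 to 542 with Pio in WT mice, with 2 of 5 called as higher (Cfd, 4.67; Retn, 3.73). Slc2a4 was called as lower with HFD in WT mice without (-2.69) and with Pio (-2.31). KO adipocyte sums were 17.2 to 48.7 CPM, with Lipe called as higher with Pio (0.84) and Slc2a4 as lower in HFD-Pio than in Pio mice (-1.75). Without mouse 13, 4 of the 5 were higher for Pio on control diet and 2 for Pio on HFD in WT mice, and 0 were called in KO mice. With all mice, 0 of 8 macrophage, 6 endothelial, 7 stellate and 5 cholangiocyte markers were called in the 8 comparisons of 2 groups. Of 5 blood markers 1 was called as lower with Pio in WT mice (Alas2, -0.87) and 2 as higher in KO mice (Hba-a2, 1.59; Hba-a1, 1.48), the latter 2 not without mouse 13. Their sums were 302 to 2030 CPM in WT control and 402 to 1020 in WT Pio mice. Of the 6 hepatocyte markers 0 were called with all mice. Without mouse 13, Apoa1 was called with HFD (0.77) and with Pio on HFD (-0.78) and Serpina1a with Pio on HFD (-0.53) in WT mice, and the stellate marker Lrat with Pio on control diet (0.59). Of 8 pancreatic acinar markers 1, Cela1, passed the filter and was not called. It was at 106 CPM in KO HFD mouse 10 and at 5.31 to 27.9 in the other KO HFD mice, and the most abundant of the others reached 4260 counts in that mouse.

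Other genes follow the position of hepatocytes along the lobule. With all mice, 1 of 7 pericentral genes, Oat, was called as higher in WT Pio than control (1.37) and in WT HFD-Pio than HFD mice (1.19). In the WT comparisons 0 of 9 periportal genes were called. The pericentral genes Slc1a2, Lgr5 and Cyp2e1 were not called in WT mice. They were higher at an unadjusted p under 0.05 in edgeR for Pio on control diet and for HFD without Pio. WT calls of these 2 lists without mouse 13 are not reported here. In KO mice 3 pericentral genes were lower with Pio (Cyp2e1, Oat, Slc1a2) and higher in HFD-Pio than in Pio mice, and 1 periportal gene, Pigr, likewise, and 0 of either list without mouse 13. The part of zonation, adipocyte markers and blood in the results was not tested.

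The genes differed widely in how far mice of 1 group varied. In WT mice the SD within groups was 0.95 on the log2 scale for Igfbp1, larger than that of 98.5% of all genes tested, 0.60 for Irs2, 0.47 for G6pc and 0.44 for Pck1. It was 0.19 for Insr, 0.20 for Foxo1 and 0.23 for Pcx, against a median of 0.32 over all genes. Igfbp1, Irs2 and Insr kept these places in KO mice without mouse 13, at 1.19, 0.65 and 0.10, against a median of 0.19. Pck1 was at 0.20 there. For Pio on control diet in WT mice the standard error of the log2 fold change was 0.12 for Insr and 0.66 for Igfbp1.

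**Figure D4:**
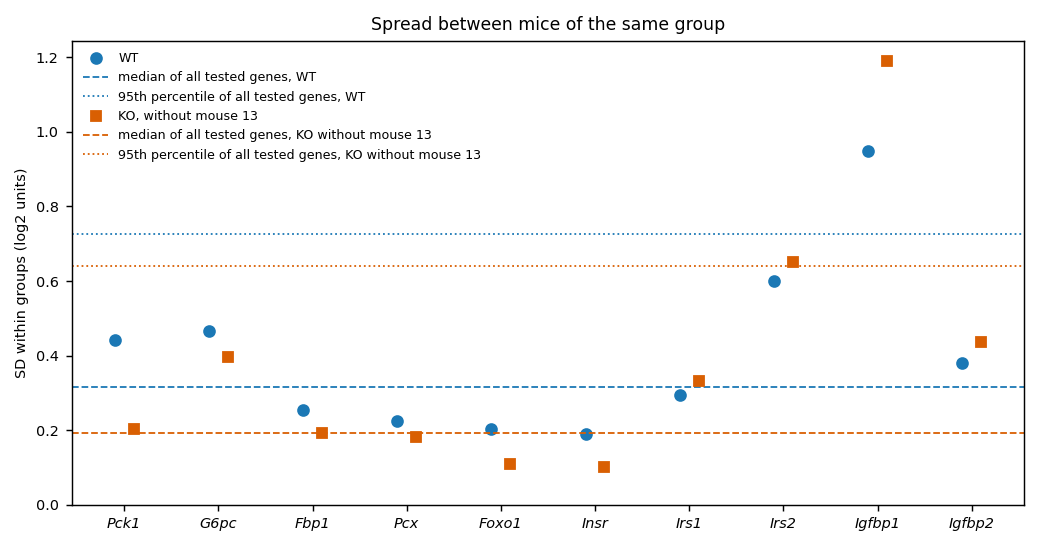
SD between mice of the same group, on the log2 scale, for each gene in WT mice (circles) and in KO mice without mouse 13 (squares), with the median and the 95th percentile of all tested genes as lines. Igfbp1 lies above the 95th percentile in both (0.95 and 1.19), and Insr (0.19 and 0.10) and Foxo1 lie below the median in both.

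Per kilobase of exon, WT control levels had a wide range. The means were 682 ± 144 CPM per kilobase for Pck1, 544 ± 99.8 for Fbp1, 403 ± 381 for Igfbp1, 166 ± 37.4 for G6pc, 159 ± 36.7 for Igfbp2 and 140.1 ± 16.6 for Pcx. The signalling genes were much lower, at 8.18 ± 1.29 for Foxo1, 8.12 ± 0.89 for Insr, 4.35 ± 1.79 for Irs2 and 3.15 ± 0.43 for Irs1. Neighbours in this order overlapped over the 5 mice, except Pcx (120.0 to 162) and Foxo1 (6.14 to 9.49), and Insr (7.34 to 9.21) and Irs2 (2.91 to 7.16). In KO control mice Pck1 (1135 ± 196) and Fbp1 (621 ± 94.1) also came first and Irs1 (3.77) and Irs2 (3.56) last.

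Set side by side without a test, Pck1 was higher in KO than in WT mice in every condition, with no overlap on control diet (3063 to 4818 against 1671 to 2994 CPM), HFD and HFD-Pio, nor between Pio groups without mouse 13. Insr also had no overlap on control diet (175 to 205 against 101 to 127 CPM), HFD and HFD-Pio. Of all genes, 17.6%, 17.9% and 20.2% lay higher in all KO than in all WT mice on control diet, HFD and HFD-Pio, and 15.6% between Pio groups without mouse 13, so 2 of the 10 in each (with Igfbp2 in place of Insr under Pio) is near that background. With all mice 1 gene, Igfbp2, was higher without overlap under Pio, against 5.71%. Pcx was higher in WT than in KO mice without overlap under HFD-Pio (782 to 1220.0 against 431 to 557 CPM) and under Pio without mouse 13, and not on the diets without Pio. Irs1 was also lower in KO mice under HFD-Pio. Of all genes 18.5% and 13.5% lay lower in those pairs of groups, against 2 and 1 of the 10.

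The genes whose levels over the 20 WT mice were most like those of the 2 called genes were named by the smallest root mean square difference of centred log2 levels. For Irs2 they were Mmachc (0.37), Atf7ip (0.38) and Spred2 (0.38), against an SD of 0.55 for Irs2 itself. For Igfbp2 they were Sra1 (0.21), Rrp9 (0.24) and Qsox2 (0.24), against 0.37.

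The genes lie on 7 chromosomes of GRCm38 by GENCODE M21, with Igfbp2 (72824503 to 72852474) and Irs1 (82233101 to 82291416) on chromosome 1, Insr (3122061 to 3279617) and Irs2 (10984681 to 11008458) on chromosome 8, and Igfbp1 (7197782 to 7202546) and G6pc (101367561 to 101377903) on chromosome 11. Pck1 is on chromosome 2 (173153048 to 173159273), Foxo1 on 3 (52268336 to 52353221), Fbp1 on 13 (62864753 to 62888282) and Pcx on 19 (4510472 to 4621752). All 10 are annotated as protein coding.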

How the data were processed

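The authors aligned poly-A reads to GRCm38 with STAR 2.0.4b, and Subread featureCounts 1.4.5 counted unique, unambiguous reads per gene, whether by strand is not stated. The deposited values are these raw counts, 1 column per mouse, in 1 table per genotype. Tables were joined by Ensembl identifier, 355 rRNA genes were set aside, and a gene was tested if 5 or more mice reached 1 CPM. All 8 groups were fitted in 1 model with edgeR 4.0.16 in R 4.3.3 (TMM, robust quasi-likelihood test), with Benjamini-Hochberg adjustment over 12942 genes in each of 14 comparisons. DESeq2 1.42.0, limma 3.58.1, DESeq2 size factors, no filter, 1 genotype alone and each mouse left out were alternatives. Exact permutation tests used scipy 1.17.1 on normalized CPM, and figures matplotlib 3.10.9. Scripts were tested on simulated data. Lengths and coordinates are from GENCODE M21.

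The members and lists were chosen with earlier results of these data known. Named were the 10 genes, up to 4 called genes with the smallest adjusted p of each list and comparison (also in the fit without KO Pio mouse 13, where some were picked after their values were seen), and the 3 genes most like each called gene. P-values of the fits set a difference between groups against the spread between these mice. Exact permutation p-values set it against all regroupings of the mice compared. Some results of listed genes are not reported here.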

Additional observations from a re-analysis of the deposited data

Results flagged for a closer look

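In 9 of the 80 sets of 5 mice (10 genes in 8 groups), 1 mouse lay far from the others by Dixon's criterion for 5 values (0.71). For normally distributed values chance alone meets it in about 1 of 20 sets, or 4 of the 80. CPM was used here without logs, so that rate is only a rough guide. KO Pio mouse 13 gave 6 of the 9. Its values were 2347 CPM for Fbp1 (nearest other mouse 979), 1159 for Pcx (552), 31.4 for Foxo1 (63.3), 81.4 for Irs1 (24.6), 257 for Irs2 (43.1) and 1691 for Igfbp2 (459). The 4 expected by chance are over all 80 sets, not over those of 1 gene or those without mouse 13. The remaining 3 of the 9 were all high values of Igfbp1. They were 362 CPM in WT HFD mouse 827 (nearest other 144), 333 in WT HFD-Pio mouse 838 (141) and 809 in KO HFD-Pio mouse 20 (293). Mouse 13 is the library with 0.852% mitochondrial counts.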

How the results depend on the processing

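Numbers of the 10 genes called changed under these settings, from 0 in the fit of all mice unless stated. DESeq2 gave 2 for Pio on control diet in WT, 1 for HFD with Pio in WT, 2 (from 1) for Pio on control diet in KO, 2 (from 1) for HFD with Pio in KO and 2 for the genotype difference of Pio on control diet. Limma with sample weights gave 3, 3 and 4 in WT for Pio on control diet, Pio on HFD and HFD with Pio, 2 for the WT diet difference, 3 (from 1) and 0 (from 1) in KO for Pio on control diet and HFD with Pio, and 2, 1 and 2 for the genotype differences of Pio on control diet, Pio on HFD and HFD with Pio. No filter gave 0 in both KO comparisons with a call, and so did 1 genotype alone, which gave 1 for Pio on control diet in WT. Leaving out both outlying Pio libraries, chosen after the data were seen, gave 1 and 3 for Pio in WT on control diet and HFD, 0 for both KO comparisons and 1 for the genotype difference on control diet. DESeq2 size factors changed 0 counts. Causes were not tested.

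Over the 40 fits that each lacked 1 mouse, counts ran from 0 to 3 (Pio on control diet, WT), 0 to 3 (Pio on HFD, WT), 0 to 1 (HFD with Pio, WT), 0 to 2 (WT diet difference), 0 to 3 (Pio on control diet, KO), 0 to 2 (HFD with Pio, KO) and 0 to 3 (genotype difference of Pio, control diet). The other 7 comparisons stayed at 0.

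Directions turned for Pcx with Pio on control diet in KO (-0.02 with all mice, 0.031 without a filter, 0.009 with KO alone, and -0.361 to 0.16 over the 40 fits), for Irs1 there (-0.06, 0.002 without a filter, -0.699 to 0.143 over the 40 fits), for Irs2 in HFD with Pio in KO (0.236 by limma, 0.37 without both libraries, -1.61 to 0.371 over the 40 fits) and for Irs2 in the KO diet difference (0.146 by limma).

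No paired analysis was possible because mouse numbers are unique and link no mice across groups.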
